A study of Mus musculus with 19 samples.

Results

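The 5 genes Retnla, Retnlg, Chi3l3 (now named Chil3, its protein Ym1), Mrc1 and Mgl2, which mark alternatively activated macrophages, were followed in blood leukocyte RNA of mice given a vasculitis-inducing fungal extract. All non-control probes that carry one of these names on the array were taken, which gave 6 probes for the 5 genes among 41174 probes under 27597 names. The genes were selected with their signals over the same 10 groups of samples known, so that their own values are given below as a description and without a test.

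CAWS, a water-soluble extract of Candida albicans, was injected intraperitoneally on consecutive days into male mice, and 0 w is the time right after the last injection. Leukocytes were taken from whole blood of DBA/2 mice, in which the extract causes severe arteritis, and of B6 mice, which the study used as controls. By the study's histology B6 mice developed aortitis as well, later than DBA/2 mice, and few of them died. All groups had received CAWS, so that a group without it was not analysed here. Samples were taken right then and after 2 w, 4 w, and 8 w, and last at 9 w, with 2 samples in each DBA/2 group. B6 mice gave 1 sample each for 2 w and 9 w and 2 samples for the other weeks. The methods give 1 range of ages for all animals and none for a group. Each of the 18 RNA samples was hybridized to a single-color Agilent array, B6 0 w replicate 2 to 2 arrays that were averaged. Values are given as a scaled signal, which is the processed intensity divided by the 75th percentile of its array, and changes as log2 differences of the scaled signal with their SE from limma.

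Macrophages that meet interleukin-4 or interleukin-13 switch on, through the factor Stat6, a program of secreted lectins, small cysteine-rich proteins and endocytic receptors that accompanies worm infection, allergy and tissue repair. Retnla encodes RELMα, a small secreted protein of that program, and Retnlg encodes its relative RELMγ, which is known from bone marrow and neutrophils. Chi3l3 encodes Ym1, a chitinase-like lectin without enzyme activity that macrophages secrete and that immature neutrophils also contain. Mrc1 encodes the mannose receptor and Mgl2 a galactose-type lectin, both of them receptors on the surface of tissue macrophages and dendritic cells.

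Retnla and Retnlg are neighbours on chromosome 16, and the upstream sequences of the pair are shown because these related genes moved differently in the samples. All 5 genes matched an entry of RefSeq's GRCm38.p6. Each line gives the 250 bases before the annotated start, 5′ to 3′, with the letters that match TTCNNNNGAA in capitals, a palindrome of the type that Stat6 prefers. The Retnla window is chr16:48842359-48842608 and the Retnlg window chr16:48872358-48872607, both on the plus strand.
Retnla: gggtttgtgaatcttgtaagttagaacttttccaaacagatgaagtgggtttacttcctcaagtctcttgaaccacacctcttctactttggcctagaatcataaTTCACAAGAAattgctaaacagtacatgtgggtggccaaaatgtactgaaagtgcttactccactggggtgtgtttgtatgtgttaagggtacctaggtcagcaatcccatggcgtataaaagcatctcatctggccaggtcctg
Retnlg: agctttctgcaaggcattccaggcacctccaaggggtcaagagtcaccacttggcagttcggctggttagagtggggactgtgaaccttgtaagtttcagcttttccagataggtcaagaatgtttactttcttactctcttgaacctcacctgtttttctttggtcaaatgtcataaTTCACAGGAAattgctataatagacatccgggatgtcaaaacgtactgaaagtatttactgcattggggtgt
The match began 145 bases before the start of Retnla and 72 bases before that of Retnlg. In a local alignment of the windows, 138 of 178 aligned columns (77.5%) were identical. A match to TTCNNNNGAA on either strand was held by 5.85% of 32851 promoter windows of that length. The windows of Chil3, Mrc1 and Mgl2 had none. That of Mgl2 was chr11:70130107-70130356 (plus strand), mostly within the RefSeq gene, which starts at 70130125. The bases before that start were thus largely not searched. A match describes letters and not a bound site. TATAAA stood 30 bases before the start of Retnla, a position usual for this element, and not in the Retnlg window, and 12.4% of the windows held it on either strand. The Chil3 window held TTCNNNGAA, a palindrome with a spacer shorter by 1 base that 7.02% of windows held, and it was 90.5% identical over 222 aligned columns to the window of the neighbouring Chil4 (Chi3l4).

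The libraries differed in what else they carried. From 33.9% to 51.4% of the spots on an array were well above background by the call of the scanner software. Of the hepatocyte markers, 9 of 9 were well above background in both B6 0 w samples and 8 or 9 of 9 in the B6 8 w samples, with a summed scaled signal of 45.4 to 46.6 and of 23.9 to 25.2. The other 14 samples lay between 0.925 and 2.44. The B6 samples at 0 w and 8 w thus held hepatocyte transcripts that a leukocyte label does not cover, and every change from 0 w in B6 mice rests on them. Of the macrophage markers, Emr1 (F4/80) was well above background in 18 of 18 samples, and Siglec1 and Mertk were in 0. In RNA of whole blood, fewer cells of a type and less RNA per cell cannot be told apart. The methods name individual mice, yet the median difference between the paired B6 samples was 0.0963 to 0.109 on the log2 scale, as between the arrays of 1 RNA (0.0983), so that p-values measure a spread that may be technical.

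Retnla was the member whose course differed most between the strains. In DBA/2 mice its scaled signal was 0.207 and 0.179 at 0 w, 0.186 and 0.151 at 2 w, 0.946 and 0.960 at 4 w, 0.937 and 0.946 at 8 w, and 0.389 and 0.390 at 9 w. In B6 mice it was 0.407 and 0.414 at 0 w, 0.729 in the single sample at 2 w, 0.00959 and 0.00906 at 4 w, 0.342 and 0.345 at 8 w, and 0.138 in the single sample at 9 w. The DBA/2 samples at 4 w and 8 w were thus the 4 highest of all 18, and the B6 samples at 4 w were the lowest and the only ones in which the probe was not well above background. Strains did not overlap at any week, and their order turned: B6 mice were higher at 0 w and 2 w, and DBA/2 mice from 4 w on.

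**Figure D1:**
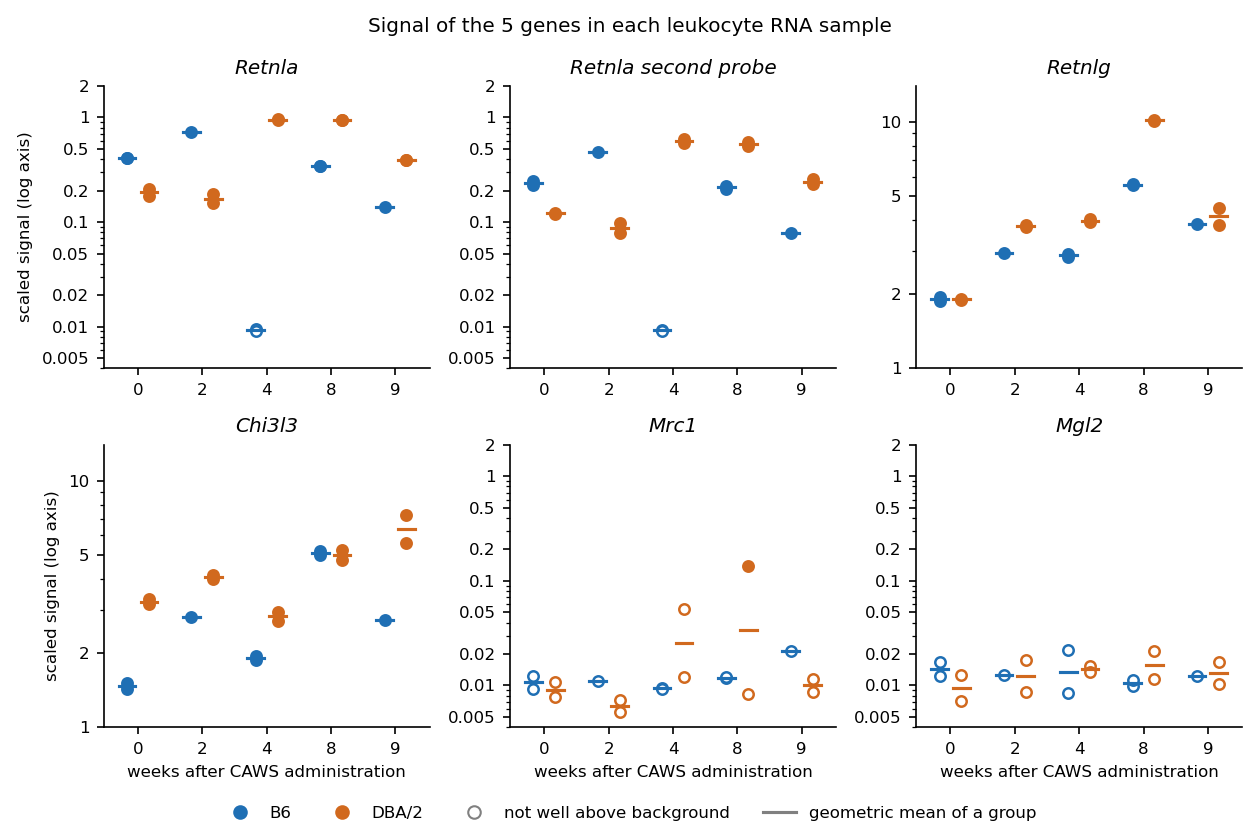
Scaled signal of the 5 genes (Retnla by both of its probes) on log axes against weeks after CAWS administration, with 1 point per RNA sample, a bar at the geometric mean of each group, and open points where the probe was not well above background. Retnla was at background only in the B6 samples at 4 w, Retnlg and Chi3l3 were well above background in all 18 samples, and Mrc1 and Mgl2 were near background almost everywhere.

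Against 0 w, Retnla in DBA/2 mice changed by −0.20 at 2 w, by 2.31 at 4 w, by 2.29 at 8 w and by 1.02 at 9 w on the log2 scale (SE 0.107 each), and the groups at 0 w and 2 w overlapped. The rise at 4 w amounted to 4.96-fold. In B6 mice it changed by 0.83 at 2 w (SE 0.131), by −0.26 at 8 w (SE 0.107) and by −1.58 at 9 w (SE 0.131). At 4 w it was at least 11.2-fold lower than at 0 w, a bound set by the lowest signal that the software called well above background on those arrays. The fitted change there was −5.46, which is no bound. At 4 w Retnla was at least 25.9-fold higher in DBA/2 than in B6 mice, and at 8 w it was 2.74-fold higher, while at 0 w it was 2.14-fold lower. Ordered by level, the groups ran from B6 4 w through B6 9 w, DBA/2 2 w, DBA/2 0 w, B6 8 w, DBA/2 9 w, B6 0 w and B6 2 w to DBA/2 8 w and DBA/2 4 w. The neighbours DBA/2 2 w and 0 w overlapped, and DBA/2 8 w and 4 w did not differ beyond their spread. DBA/2 9 w and B6 0 w stood in the reverse order by the second probe for Retnla, so that their order is not settled.

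Both Retnla probes read the same stretch of the gene. The main probe lies at chr16:48763960-48764019 and the other at chr16:48763950-48764009 (mm8, plus strand), so that 50 of 60 bases overlap and they are not independent. In DBA/2 mice the second probe gave changes of 2.29 at 4 w and 2.20 at 8 w, and −0.47 at 2 w. Here the groups did not overlap, with 0.0979 and 0.0782 at 2 w against 0.120 and 0.122 at 0 w. Its B6 signal at 4 w was at least 6.49-fold lower than at 0 w. Its strain difference, the mean change at 4 w and 8 w in DBA/2 mice less the mean change of the B6 mice, was at least 12.7-fold against at least 18.01-fold for the main probe, with B6 4 w set to its lowest measurable signal.

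Against the single B6 2 w sample, whose hepatocyte sum was 1.86, Retnla was at least 19.8-fold lower in the B6 4 w samples, whose sum was 1.54 to 1.58. The part of hepatocyte RNA in the changes from 0 w was not tested. Compared within a slide, the change from 0 w in DBA/2 mice was 2.19 and 2.43 at 4 w and 2.18 and 2.41 at 8 w. The B6 4 w samples were at background on both of their slides, so that no within-slide size is given for them. When the background was corrected by normexp instead, the strain difference of Retnla was 2.45 and not 5.16, with the same direction.

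**Figure D2:**
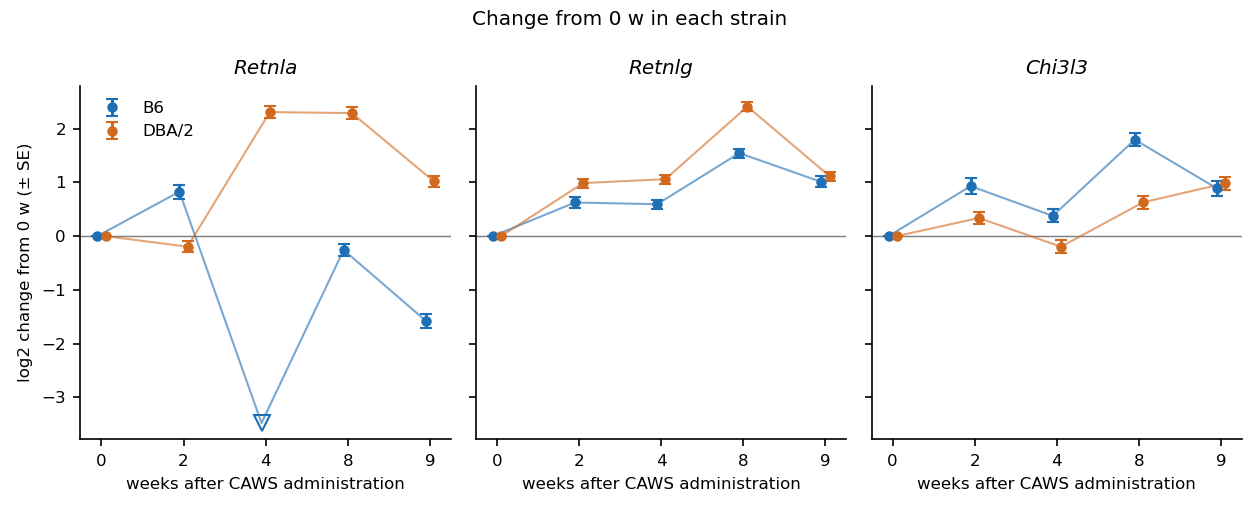
Log2 change from 0 w, with its SE, of Retnla, Retnlg and Chi3l3 at each week in B6 and DBA/2 mice. The open triangle is the highest change that the B6 4 w samples allow for Retnla, where the probe was not well above background. Retnla moved apart between the strains at 4 w, Retnlg rose in both, and Chi3l3 changed more in B6 mice at 8 w.

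Retnlg rose in both strains from a common level. Its scaled signal at 0 w was 1.94 and 1.87 in B6 and 1.91 and 1.90 in DBA/2 mice. The B6 signal was 2.95 at 2 w, 2.84 and 2.91 at 4 w, 5.61 and 5.53 at 8 w, and 3.84 at 9 w. The DBA/2 signal was 3.83 and 3.74 at 2 w, 4.02 and 3.94 at 4 w, 10.2 and 10.1 at 8 w, and 4.49 and 3.81 at 9 w. The strains overlapped at 0 w and 9 w, and DBA/2 samples were higher at the other weeks, with the DBA/2 8 w samples the highest of all.

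From 0 w, Retnlg in DBA/2 mice changed by 0.99 at 2 w and by 1.06 at 4 w, then by 2.41 at 8 w, and by 1.12 at 9 w (SE 0.0837 each). Its B6 changes were 0.63 at 2 w and 1.01 at 9 w (SE 0.102) and 0.59 at 4 w and 1.55 at 8 w (SE 0.0837). At 8 w this amounts to 5.33-fold in DBA/2 and 2.92-fold in B6 mice. In the order of the groups, both 0 w groups were lowest and did not differ beyond their spread, and DBA/2 2 w, B6 9 w, DBA/2 4 w and DBA/2 9 w formed a run of neighbours in which DBA/2 9 w overlapped each of the others. Its single probe lies at chr16:48793981-48794040 (mm8, plus strand).

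The neutrophil markers moved beside Retnlg. All 10 with a probe, among them S100a8, Camp, Ngp and Mmp8, rose from 0 w to the mean of 4 w and 8 w in both strains, with a median log2 change of 2.34 in DBA/2 and 2.22 in B6 mice. Their summed scaled signal went from 105 to 106 at 0 w to 696 to 777 at 8 w in DBA/2 mice and from 55.6 to 55.7 to 426 to 428 in B6 mice. At 9 w it was 262 to 321 in DBA/2 mice and 221 in the B6 sample. Of the 10, 6 or 7 were well above background in B6 mice at 0 w and 9 or 10 in all other samples. The part of neutrophil number in the Retnlg values was not tested.

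Chi3l3 differed between the strains at the outset. At 0 w its scaled signal was 3.30 and 3.15 in DBA/2 and 1.43 and 1.51 in B6 mice, a 2.20-fold difference. Later DBA/2 values were 4.15 and 4.00 at 2 w, 2.94 and 2.69 at 4 w, 5.23 and 4.75 at 8 w, and 7.27 and 5.6 at 9 w. Later B6 values were 2.80 at 2 w, 1.94 and 1.87 at 4 w, 5.0 and 5.19 at 8 w, and 2.72 at 9 w. The 8 w samples of the strains overlapped, while at 0 w, 2 w, 4 w and 9 w every DBA/2 sample was higher.

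Chi3l3 in DBA/2 mice changed from 0 w by 0.34 at 2 w and by −0.20 at 4 w, then by 0.63 at 8 w, and by 0.99 at 9 w (SE 0.119 each). Its B6 changes were 0.93 at 2 w and 0.89 at 9 w (SE 0.146) and 0.38 at 4 w and 1.80 at 8 w (SE 0.119). The mean change at 4 w and 8 w was 0.22 in DBA/2 and 1.09 in B6 mice, so that the strain difference of −0.87 (SE 0.146) ran against that of Retnla. The level at 4 w was below that at 2 w and at 8 w in both strains. The neutrophil sum was also lower at 4 w than at 2 w in B6 mice, 138 to 148 against 187, while in DBA/2 mice it was 279 to 288 at 2 w and 332 to 358 at 4 w. Among neighbours in the order of the groups, B6 9 w, B6 2 w and DBA/2 4 w overlapped, and so did DBA/2 8 w and B6 8 w. Its probe lies at chr3:106275623-106275682 (mm8, minus strand).

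**Figure D3:**
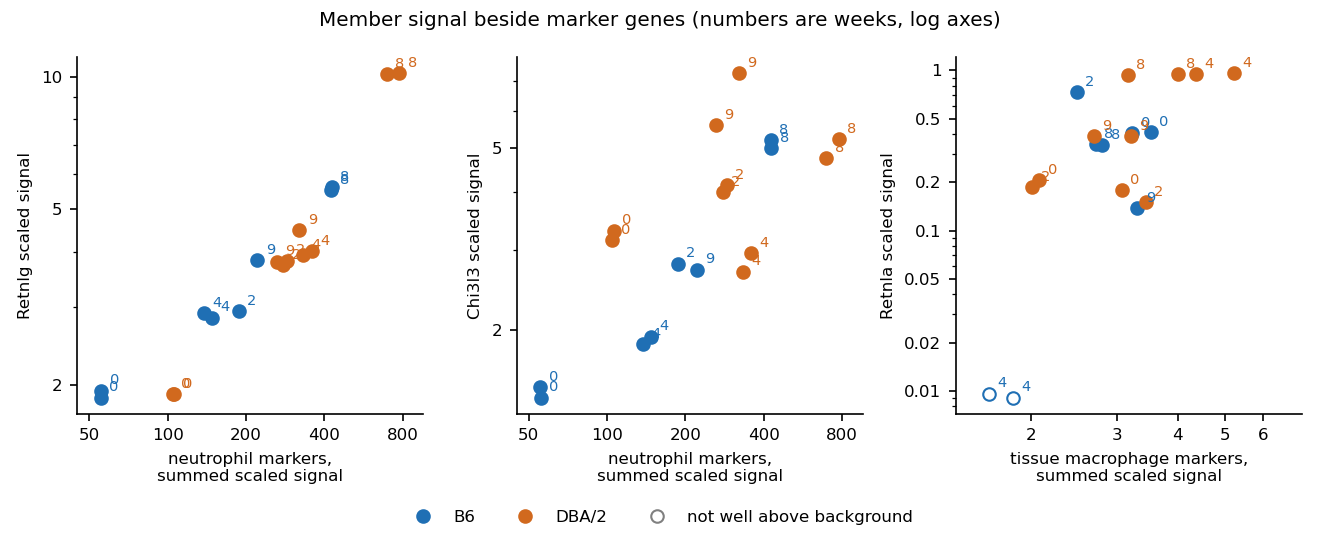
Scaled signal of Retnlg and Chi3l3 against the summed scaled signal of 10 neutrophil markers, and of Retnla against that of 12 tissue macrophage markers, with 1 point per sample, the week beside each point and log axes. Retnlg lay along the neutrophil sum within each strain, but at 0 w it was level between the strains while the sum was larger in DBA/2 mice. Chi3l3 was higher in DBA/2 mice at 0 w than in B6 mice at 4 w, whose sum was larger. The B6 4 w samples were lowest on both axes of the Retnla plot.

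Mrc1 and Mgl2 could not be tested, since they were well above background in 1 and 0 of the 18 samples. The Mrc1 signal was 0.00562 to 0.139 with a median of 0.0108, and the highest value was DBA/2 8 w replicate 2, the only sample above background. Its partner replicate stood at 0.00837, so that the pair differ by more than any difference between groups. The next highest was DBA/2 4 w replicate 2 at 0.0535, again with a partner at background (0.0121). The Mgl2 signal lay between 0.00707 and 0.0216 with no order of groups. The probes lie at chr2:14249431-14249491 for Mrc1 and chr11:69953225-69953284 for Mgl2 (mm8, plus strand).

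Of the 3 members tested, 2 were past the limma threshold in the DBA/2 mean change at 4 w and 8 w, beside 22.8% of all probes tested, 3 in the B6 mean change beside 15.0% of all probes, and 3 in the strain difference beside 13.2% of all probes. The genes were selected on these values, so that nothing is read from the counts.

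The gene lists used here and below were chosen with earlier results of these data known, so that their counts and adjusted p-values are descriptive. Other genes of alternative activation were drawn from a list of 20, of which 17 could be tested. Of these, 12 passed the threshold in DBA/2 mice at the mean of 4 w and 8 w, 11 of them higher, beside 22.8% of all probes. The median log2 change of the 17 was 1.06 beside −0.139 over all probes tested. In B6 mice 8 passed, 3 higher and 5 lower, beside 15.0%, with a median of −0.308 beside −0.0792. In the strain difference 10 genes passed, 9 of them toward DBA/2 mice, beside 13.2%, with a median of 0.523 beside −0.0361. With normexp 3 of the list passed in DBA/2 mice, 1 in B6 mice and 1 in the strain difference.

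Alox15, a lipoxygenase that interleukin-4 induces in macrophages, was higher in DBA/2 and lower in B6 mice at 4 w than at 0 w. In DBA/2 mice its scaled signal was 0.0187 and 0.0194 at 0 w, not well above background, and 0.112 and 0.0989 at 4 w, at least 3.07-fold higher (adjusted p = 0.018 in the limma fit). The B6 values were 0.124 and 0.119 at 0 w, 0.0165 and 0.0143 at 4 w, where it was at least 3.30-fold lower (adjusted p = 0.00762), and 0.0786 and 0.0668 at 8 w. Its strain difference was 3.90 (SE 0.695, adjusted p = 0.00599), a fitted value that includes groups at background.

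Ccl24, the eosinophil attractant eotaxin-2, was 0.117 and 0.106 in B6 mice at 0 w and was not well above background at 4 w, at least 3.03-fold lower (adjusted p = 8.52e-06). DBA/2 samples went from background at 0 w to 0.0698 and 0.0526 at 4 w, at least 1.77-fold higher (adjusted p = 0.000145), although only 1 of the 2 samples was well above background. Cd163, the scavenger receptor for hemoglobin and haptoglobin, was measured in both DBA/2 4 w samples at 0.0906 and 0.0835, at least 2.53-fold above 0 w (adjusted p = 6.78e-05). Msr1, the class A scavenger receptor, reached 0.110 and 0.0940 in DBA/2 mice at 8 w, at least 2.97-fold above 0 w (adjusted p = 0.00067). Both scavenger receptors were at background in B6 mice at 4 w. Among B6 samples Cd163 was well above background only in B6 8 w replicate 1, so that it passed the filter only with DBA/2 samples.

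Arg1, the arginase of the urea cycle and of alternative activation, and Igf1, a growth factor made by liver and macrophages, moved with the hepatocyte markers in B6 mice. Arg1 was 0.181 and 0.183 at B6 0 w and 0.156 and 0.128 at B6 8 w, and it was at background in the other B6 samples. Igf1 was 0.365 and 0.374 at B6 0 w and 0.201 and 0.215 at B6 8 w, and it was at background in all other samples of both strains. In DBA/2 mice Arg1 was 0.0232 and 0.0395 at 4 w and 0.0295 and 0.0385 at 8 w, and its 0 w samples were at background. Its means at 4 w and 8 w lay below the lowest signal called well above background on the 0 w arrays. No rise can thus be bounded, and the fitted change of 2.13 at 8 w is no bound. The part of hepatocyte RNA in the strain differences of Arg1 (4.48) and Igf1 (2.74) was not tested.

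**Figure D4:**
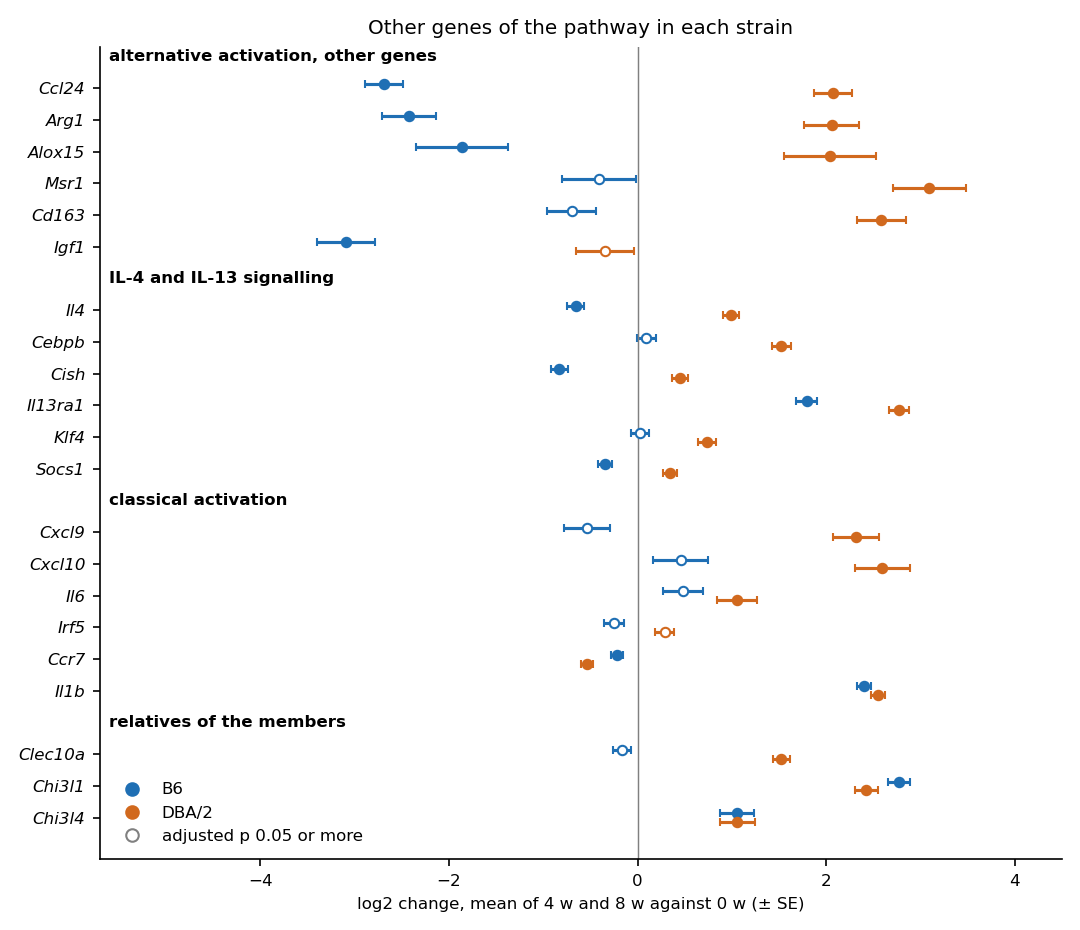
Log2 change from 0 w to the mean of 4 w and 8 w, with its SE, in B6 and DBA/2 mice for the genes of 4 lists that were past the threshold in DBA/2 mice or in the strain difference, up to 6 per list, with open points for an adjusted p of 0.05 or more. Ccl24 and Alox15 fell in B6 and rose in DBA/2 mice, as did the fitted values of Arg1, whose DBA/2 rise could not be bounded. Il1b, Chi3l1 and Chi3l4 rose in both strains.

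Genes of the cytokine signal upstream were better measured. Of 20 genes of interleukin-4 and interleukin-13 signalling 18 could be tested, and 10 passed in DBA/2 mice, 9 higher and 1 lower, beside 22.8% of all probes. In B6 mice 7 passed, 2 higher and 5 lower, beside 15.0%. In the strain difference 8 passed, 7 of them toward DBA/2 mice, beside 13.2%. With normexp 3 passed in DBA/2 mice, 0 in B6 mice and 1 in the strain difference. Median changes were 0.209 in DBA/2 mice, −0.152 in B6 mice and 0.489 for the strain difference, beside −0.139, −0.0792 and −0.0361 over all probes.

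Il4 itself, the ligand, was 0.0632 and 0.0576 at 0 w and 0.168 and 0.158 at 4 w in DBA/2 mice, a change of 1.43 (SE 0.102, adjusted p = 2.01e-05). At 8 w it was 0.0908 and 0.0859. Its B6 values were 0.0821 and 0.0861 at 0 w and 0.0472 and 0.0575 at 4 w, a change of −0.69 (SE 0.102, adjusted p = 0.00206), with 1 of the 2 samples well above background at 4 w. The DBA/2 4 w samples were the highest of all 18. Basophils are a known source of Il4, and the summed signal of 5 basophil and mast cell markers was 1.05 to 1.06 at 0 w and 1.51 to 1.59 at 4 w in DBA/2 mice, the highest of all groups, with 3 of 5 past the threshold and higher. In B6 mice it was 0.656 to 0.756 at 0 w and 0.793 to 0.822 at 4 w. The part of these cells in the Il4 values was not tested.

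Il13ra1, a chain of the receptor for both cytokines, rose in both strains, from 0.0472 and 0.0400 at 0 w to 0.424 and 0.391 at 8 w in DBA/2 mice and from 0.0481 and 0.0438 to 0.292 and 0.283 in B6 mice. Its strain difference was 0.98 (SE 0.155, adjusted p = 0.00329). Cish and Socs1, feedback inhibitors of cytokine receptors, had mean changes of 0.45 in DBA/2 and −0.83 in B6 mice for Cish and of 0.34 and −0.35 for Socs1, all past the threshold. The DBA/2 change of Cish was 1.07 at 4 w, with an adjusted p of 0.000116, but −0.16 at 8 w, where it did not pass (adjusted p = 0.284) and DBA/2 minus B6 was −0.40 (adjusted p = 0.0155). Cebpb and Klf4, factors that act with Stat6 in macrophages, rose in DBA/2 mice by 1.52 and 0.73 and changed by 0.09 and 0.02 in B6 mice, where they did not pass the threshold (adjusted p = 0.626 and 0.916). The strain differences were 1.28 for Cish, 0.69 for Socs1, 1.43 for Cebpb and 0.71 for Klf4, all past the threshold.

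**Figure D5:**
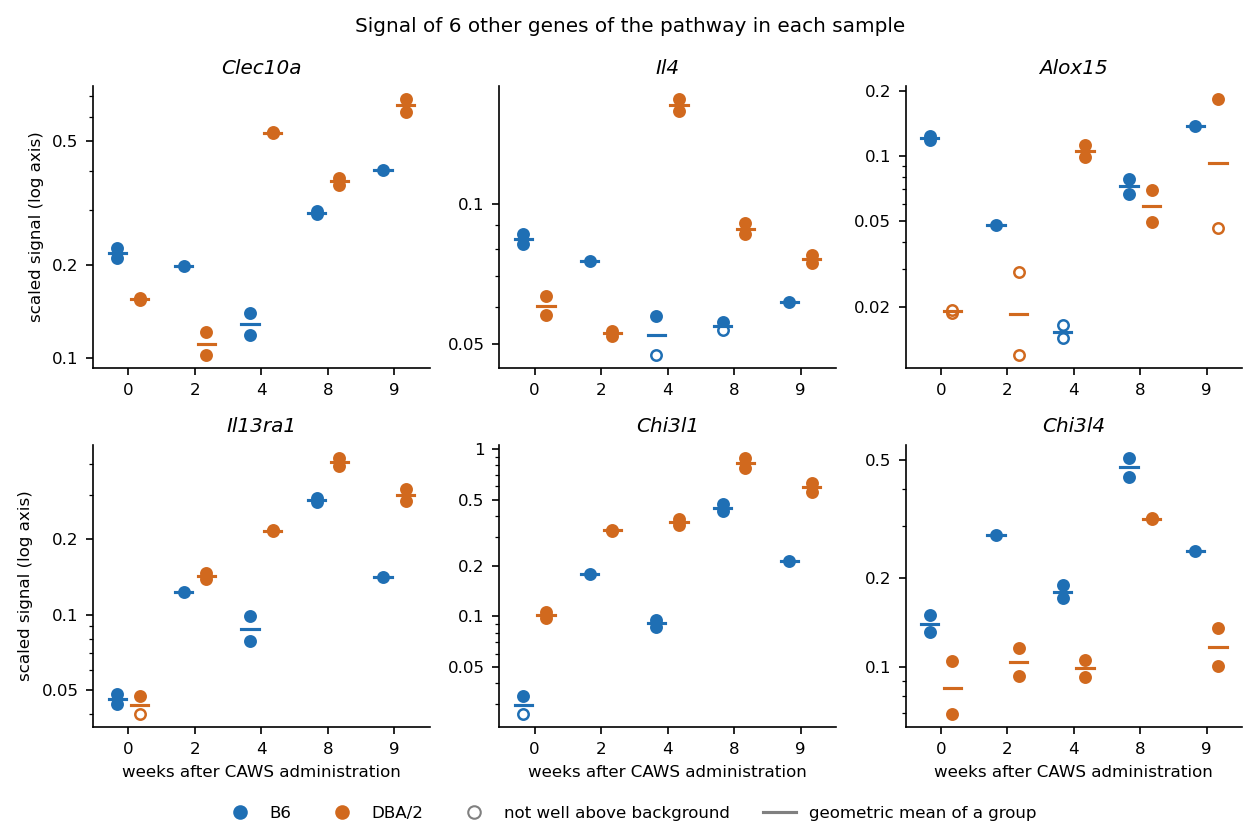
Scaled signal of Clec10a, Il4, Alox15, Il13ra1, Chi3l1 and Chi3l4 on log axes against weeks after CAWS administration, with 1 point per sample, a bar at the geometric mean of each group, and open points where the probe was not well above background. Clec10a, Il4 and Alox15 were low in B6 mice at 4 w and high in DBA/2 mice at 4 w, while the chitinase-like genes rose in both strains to 8 w.

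Of the 12 relatives of the members 9 could be tested, and 1 of them, Clec10a, passed in the strain difference, a share of 11.1% beside 13.2% of all probes. It is the sister lectin gene of Mgl2 on chromosome 11. Clec10a was well above background in 18 of 18 samples. Its scaled signal was 0.156 and 0.154 at 0 w, 0.121 and 0.102 at 2 w, 0.536 and 0.532 at 4 w, 0.381 and 0.363 at 8 w, and 0.686 and 0.623 at 9 w in DBA/2 mice. The B6 values were 0.211 and 0.227 at 0 w, 0.198 at 2 w, 0.119 and 0.140 at 4 w, 0.291 and 0.298 at 8 w, and 0.403 at 9 w. The order of the strains turned as it did for Retnla, with B6 mice higher at 0 w and DBA/2 mice higher at 4 w by 2.05 (SE 0.108, adjusted p = 9.07e-07), and the strain difference was 1.69 (SE 0.133, adjusted p = 6.81e-05).

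The chitinase-like relatives of Chi3l3 rose in both strains. Chi3l1 (now Chil1), a lectin of neutrophils and macrophages, rose by 2.42 in DBA/2 (SE 0.119, adjusted p = 1.02e-06) and by 2.77 in B6 mice (SE 0.119, adjusted p = 1.13e-06), and Chi3l4 (Ym2) rose by 1.06 (SE 0.185, adjusted p = 0.0029) and by 1.05 (SE 0.185, adjusted p = 0.00446). At 8 w Chi3l4 had changed by 1.90 and 1.75, while at 4 w it had not passed the threshold, with 0.22 in DBA/2 (adjusted p = 0.606) and 0.36 in B6 mice (adjusted p = 0.331). Chi3l4 was higher in B6 mice at 4 w, with a DBA/2 minus B6 difference of −0.86 (adjusted p = 0.0128), which is the reverse of Chi3l3. Ym1 and Ym2 are close copies, and signal shared between their probes was not tested. Retn, Retnlb and Mrc2 were well above background in fewer than 2 samples and were not tested.

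Genes of classical activation, the opposing program that interferon-γ sets off, were a list of 20 of which 13 could be tested. In DBA/2 mice 7 passed, 6 higher and 1 lower, beside 22.8% of all probes. In B6 mice 4 passed, 3 higher and 1 lower, beside 15.0%. In the strain difference 4 passed, 3 of them toward DBA/2 mice, beside 13.2%. The list medians were 0.736 in DBA/2 mice, 0.364 in B6 mice and 0.148 for the strain difference. Over all probes they were −0.139, −0.0792 and −0.0361. With normexp the limma fit passed 3, 2 and 0, the last with 1 at an unadjusted p under 0.05. Il1b, the inflammatory cytokine, rose in both strains by 2.55 and 2.40 (SE 0.0734 each, adjusted p = 1.11e-07 in DBA/2 and 2.17e-07 in B6 mice). Cxcl9 and Cxcl10, the interferon-induced chemokines, were measured in DBA/2 mice at 8 w, at least 1.97-fold and 3.32-fold above 0 w. Both entered the fit only through DBA/2 samples at 4 w or later, and both are in the DBA/2 and strain difference counts above. Il6, which entered the fit through 3 DBA/2 samples at 4 w or 8 w, was at least 1.5-fold above 0 w at 4 w (1 of 2 samples well above background) and at least 1.13-fold at 8 w. Irf5 differed between the strains by 0.54 and Ccr7 by −0.32 (adjusted p = 0.0385 and 0.0467). Nos2, the enzyme that defines the classical program in mouse macrophages, was well above background in fewer than 2 samples and was not tested.

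The comparison of the strains at 4 w uses none of the B6 samples with hepatocyte RNA. There 13 of the 17 other genes of alternative activation passed the threshold, 11 of them higher in DBA/2 mice, beside 32.1% of all probes. Of the cytokine signalling list 9 of 18 passed, all higher in DBA/2 mice. The classical list had 8 of 13, 6 higher and 2 lower. At 0 w, 13 of 17 of the alternative activation genes passed as well, 4 higher and 9 lower in DBA/2 mice, beside 32.6%. The signalling list then had 5 of 18, 1 higher and 4 lower, and the classical list 6 of 13, 4 higher and 2 lower. At 8 w 9 of the 17 passed, 5 higher and 4 lower, beside 25.4%. The signalling list had 11 of 18, 8 higher and 3 lower, and the classical list 6 of 13, 5 higher and 1 lower.

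Tissue macrophage markers matched the Retnla extremes at 4 w and departed from Retnla at other weeks. Monocyte markers were neither highest in DBA/2 mice at 4 w nor lowest in B6 mice at 4 w. The summed scaled signal of 12 tissue macrophage markers was 4.36 to 5.22 in DBA/2 mice at 4 w, the highest of all groups, and 1.64 to 1.84 in B6 mice at 4 w, the lowest. In the latter 4 of 12 were well above background, against 7 or 8 of 12 in the former. At 0 w, 2 w and 9 w the B6 sum was 3.23 to 3.52, 2.48 and 3.30, where Retnla was highest at 2 w and lowest at 9 w of these 3 weeks. The monocyte sum was 3.08 to 3.15 at 0 w, 7.57 to 7.96 at 4 w and 12.7 to 12.9 at 8 w in DBA/2 mice, and 5.28 to 5.51, 3.89 to 4.17 and 8.07 to 8.18 in B6 mice. It was thus higher at 8 w than at 4 w in DBA/2 mice and higher at 8 w than at 0 w in B6 mice, where Retnla was not. Of the peritoneal macrophage markers 2 of 5 were well above background in B6 mice at 4 w and 5 of 5 in the DBA/2 samples of that week, and Alox15 is one of these markers. Their summed signal was 2.13 to 2.34 in the former and 2.53 to 2.63 in the latter. It was 1.68 to 1.83 in the DBA/2 samples after 2 w, 8 w and 9 w, where Retnla ranged from 0.151 to 0.946. Of these markers Icam2 and Selp were well above background in 18 samples, Gata6 in 13, and Alox15 and Tgfb2 in 11 each. Adipocytes are another source of Retnla, and of their 5 markers Fabp4 was well above background in 17 samples, Adipoq in 2, and Plin1, Cfd and Lep in 0. Their summed signal ranged from 0.128 to 0.832. The part of macrophage and monocyte number in the Retnla values was not tested.

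The genes most like each member were sought among 17060 probes by Pearson's r over the 18 samples, which share their arrays and groups, and are a description. For Retnla they were Ddost (r = 0.919), Cgnl1 (0.904), Prg4 (0.897), C1qa (0.897) and C1qc (0.895). By Spearman's rho none of these 5 was among the first 5, which were Ifng, Fasl, Cxcr6, Id2 and Hspa5 (0.905 to 0.878). Both measures include the B6 4 w samples, in which Retnla was at background, and their weight in r was not tested. For Retnlg they were Casp4 (r = 0.971), S100a8 (0.970), S100a11 (0.965), Cstdc6 (0.962) and LOC670046 (0.960), of which 4 were also among the first 5 by rho. For Chi3l3 they were Rlf (r = 0.937), Braf (0.924), Chi3l1 (0.887), Ngp (0.885) and Olfm1 (0.885), with 2 of them among the first 5 by rho. The members were less like each other, with r = 0.680 between Retnlg and Chi3l3, 0.364 between Retnla and Retnlg and 0.377 between Retnla and Chi3l3.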

How the data were processed

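Blood leukocyte RNA was labelled with Cy3 and hybridized to Agilent whole mouse genome arrays (19 arrays, 18 samples, 10 groups). The authors extracted the images with Feature Extraction (9.5.3.1 per the labels). The deposited intensity is its processed signal on a linear scale, which is background-subtracted and not normalized between arrays. The deposited value table served as an alternative. The members and gene lists were chosen with earlier results of these data known.

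Outlier spots were removed, and each array's log2 signal was centred on the 75th percentile of 11533 probes detected throughout. A probe entered the limma model (3.58.1, R 4.3.3) if detected in at least 2 of 18 samples, which left 22936. The model had 10 group means, 8 residual degrees of freedom and a prior of 1.37. All comparisons with 0 w share its samples. P-values were adjusted over all probes fitted by Benjamini-Hochberg (threshold 0.05). Groups of 1 sample borrow their spread from the rest, and the number of arrays limits precision. A group at background has only a bound, set by the lowest detected signal on its arrays.

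A gene is given by its brightest probe. Named genes are up to 6 per list past the threshold in DBA/2 mice or the strain difference, by size of the latter, and the 5 most like each member among probes detected in at least 9 samples. Ccl17, Il1rn, Tgm2, F13a1, Ear11 and Jak1 were chosen after their values were seen. Positions on mm8 come from the files, and the exon or UTR of a probe was not analysed here. The procedure was tested on simulated data. Sequence searches used Python 3.11.15.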

Additional observations from a re-analysis of the deposited data

Results flagged for a closer look

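The change from 0 w to the mean of 4 w and 8 w differed between DBA/2 and B6 mice for the following genes, by the limma test of the difference itself except for Retnla. For Retnla the log2 difference was at least 4.17 with the B6 4 w samples at the lowest measurable signal, and it was not tested because the gene was selected on these values. Among other genes of alternative activation it was 4.756 for Ccl24, 4.478 for Arg1, 3.903 for Alox15, 3.507 for Msr1, 3.282 for Cd163 and 2.744 for Igf1, all fitted values that include groups at background. For the well measured lectin gene Clec10a it was 1.69.

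In the interleukin-4 and interleukin-13 list it was 1.647 for Il4, 1.427 for Cebpb, 1.278 for Cish, 0.9796 for Il13ra1, 0.7105 for Klf4 and 0.69 for Socs1. In the classical list it was 2.856 for Cxcl9, 2.135 for Cxcl10, 0.5382 for Irf5 and -0.315 for Ccr7. The Cxcl9 and Cxcl10 values are fitted with all B6 samples and DBA/2 0 w at background, and at 8 w these genes were at least 2.27-fold and 3.4-fold higher in DBA/2 than in B6 mice. The hepatocyte transcripts in the B6 0 w and 8 w samples enter each of these differences, and their part was not tested. With normexp background correction each tested difference kept its direction, and those of Cebpb (1.30) and Clec10a (1.16) stayed past the threshold while the others did not.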

How the results depend on the processing

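Changes were compared for Retnla, Retnlg and Chi3l3 (279 values over the alternatives) and for 21 other named genes (1929 values). None past the threshold changed sign, and 120 of the latter lost it, 39 of them with normexp. Each setting had 63 values of the named genes, and these include values that were not past the threshold in the main fit. A further 13 values changed sign without passing in either setting, among them the Chi3l1 strain difference, -0.34 and with normexp 0.86. List medians were not rerun. Over all probes 5231 passed in DBA/2 mice, 3438 in B6 mice and 3021 in the strain difference. With normexp these were 584, 179 and 90, other pathway genes fell from 30, 22 and 22 to 10, 3 and 2, members past the threshold in the strain difference from 3 to 1, and Retnla was 1.60, -0.85 and 2.45. Without a filter on dim probes the counts were 3055, 1627 and 1259. A slide block gave 4663 for the strain difference. With each B6 pair as 1 sample, chosen after seeing the data, 650 passed in B6 mice and 873 in the strain difference, with 12 and 12 pathway genes and 1 member. Leaving out 1 sample at a time gave 3063 to 5571, 1705 to 3743 and 1806 to 3219. Without B6 0 w replicate 1 or 2 the B6 count was 1705 or 1836 and the strain difference 1806 or 1931, and without DBA/2 0 w replicate 1 or 2 the DBA/2 count was 3093 or 3063 and the strain difference 1831 or 1842. The causes were not tested.

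With the replicate block 6557, 4761 and 4186 probes passed. Deviations of same-numbered samples correlated from -0.0109 to 0.455 over 8 groups, so the numbers were not taken to pair the samples.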

Other observations

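Ccl17, a chemokine of alternative activation, and Il1rn, the interleukin-1 receptor antagonist, were singled out after their values were seen. So were Tgm2, F13a1 and Ear11 of the alternative activation list and Jak1 of the cytokine signalling list. Ccl17 was well above background in all 8 B6 samples, at a scaled signal of 0.111 to 0.356, and in 1 of 10 DBA/2 samples, DBA/2 0 w replicate 1, at 0.0374. The other DBA/2 samples lay between 0.00615 and 0.0274. No test is given for any of these genes. Il1rn was higher in both strains at the mean of 4 w and 8 w than at 0 w, by 1.91 in DBA/2 mice and by 2.30 in B6 mice, the latter a fitted value because B6 0 w was at background. Tgm2, F13a1, Ear11 and Jak1 were well above background in 18 samples. F13a1 changed by 0.82 in DBA/2 and 1.39 in B6 mice, and Ear11 by −0.50 and −0.48. Strain differences were 1.73 for Tgm2, −0.57 for F13a1, −0.03 for Ear11 and −0.30 for Jak1.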
